A study of Rattus norvegicus with 6 samples.

Results

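Aminoacyl-tRNA synthetases are the enzymes that join each amino acid to its tRNA, the step that prepares the building blocks of translation. Rat myocardium was examined here for the genes of this family, chosen by name: a letter for the amino acid, the ending "ars", and where present a subunit letter and a digit. Of the 32623 genes in the deposited table, 37 had such a name, of which 20 were taken as cytosolic and the 17 whose names end in 2 as mitochondrial. Total RNA had been sequenced from the myocardial tissue of WT male rats, 3 labelled Sham and 3 labelled Ischemia, the latter with the left anterior descending coronary artery tied, and both groups carried a time of 30 min. The labels give no strain or age, and for sham they do not say what was done beyond the group's name. The question was which of these enzymes differed in transcript level between ischemic and sham myocardium, and whether the cytosolic and the mitochondrial sets behaved alike.

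Animal cells keep separate enzymes for the ribosomes of the cytosol and for those inside mitochondria, although both sets are encoded in the nucleus. Most amino acids therefore have a pair of genes, while Gars and Kars each serve both compartments from a single gene, and cytosolic charging with glutamate and proline is done by a joint enzyme, Eprs, whose name falls outside the rule. Several cytosolic synthetases are bound together in the multisynthetase complex by the scaffold proteins Aimp1, Aimp2 and Eef1e1. Many cytosolic synthetase genes are known targets of ATF4, a transcription factor of the amino acid response, and the heart is rich in mitochondria, whose own translation system makes subunits of the respiratory chain.

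The libraries held 68529126 to 79591989 counts each. The summed FPKM (fragments counted on a gene, divided by its length and by the depth of the library) of 10 cardiomyocyte markers was 13067 to 45439, so defining markers of the labelled tissue were present. The samples differed in other ways. The sum of 5 atrial markers reached 48344 in sham replicate 1 and 39345 in sham replicate 3 but 216 in sham replicate 2, while ischemia replicates 1 to 3 had 9610, 2078 and 1279. Sham replicate 1 had 161 counts on the Y chromosome against 3218 to 8970 in the other libraries, although the rats are described as male. Of 10 neutrophil markers tested, 10 were called higher in ischemia. Fold changes below were estimated with edgeR after TMM scaling, whose factors ran from 0.8341 in sham replicate 2 to 1.11 in ischemia replicate 2. The FPKM printed for each library are the deposited values, which carry no such factor.

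The cytosolic synthetases were mostly higher in ischemic myocardium. Of the 20 genes, 18 had a log2 fold change (ischemia over sham) above 0, the median was 0.82 and the range was -1.01 to 1.48, while the median over all 13964 genes tested was -0.0015. At an adjusted p under 0.05, 7 of the 20 rose, namely Yars1, Tars1, Nars1, Gars, Farsb, Mars1 and Hars1, beside 5.18% of all genes tested. None of the 20 was called lower by edgeR, DESeq2 or limma, and edgeR called 1.53% of all genes lower. At an unadjusted p under 0.05, 0 were lower with edgeR, beside 14.2% of all genes, and 1 was lower with DESeq2. An unadjusted p under 0.05 with a higher level was reached by 15 of the 20, beside 18.2% of all genes. All 3 ischemia values of log2 CPM (counts scaled to library size with TMM factors) lay above all 3 sham values in 17 of the 20 genes, beside 22.0% of all genes tested, and below them in 1, beside 19.1%. All 20 genes kept the direction of their change under each of the 18 alternatives fitted.

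The summed FPKM of the cytosolic genes was 457, 423 and 455 in the sham libraries (445 ± 19.2, SD, n = 3) against 675, 894 and 772 in the ischemia libraries (780 ± 110, SD, n = 3). The groups did not overlap, and ischemia replicate 2 stood highest in deposited FPKM. Divided by the TMM factors the sums were 441, 507 and 432 in sham against 664, 805 and 792 in ischemia, so ischemia replicates 2 and 3 were then close. In the same libraries the neutrophil marker sum was 14.4, 30.5 and 13.5 in sham against 1466, 4124 and 855 in ischemia, with no count in any sham library for Retnlg and Fpr1. The sum of 9 monocyte and macrophage markers was 307, 229 and 381 in sham against 952, 5155 and 1719 in ischemia, and 4 of the 9 were called higher. Both leukocyte sums were higher in all ischemia libraries than in all sham libraries, as the cytosolic sum was, and the part of such cells in the change was not tested. Within the ischemia group the order of the libraries was shared in part. After TMM scaling replicate 2 was the highest for 10 of the 20 cytosolic genes and replicate 3 for 8. Replicate 1 was the lowest for 15 and replicate 2 for 5. In bulk tissue a change in the number of cells of a type and a change in RNA per cell cannot be told apart.

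**Figure D1:**
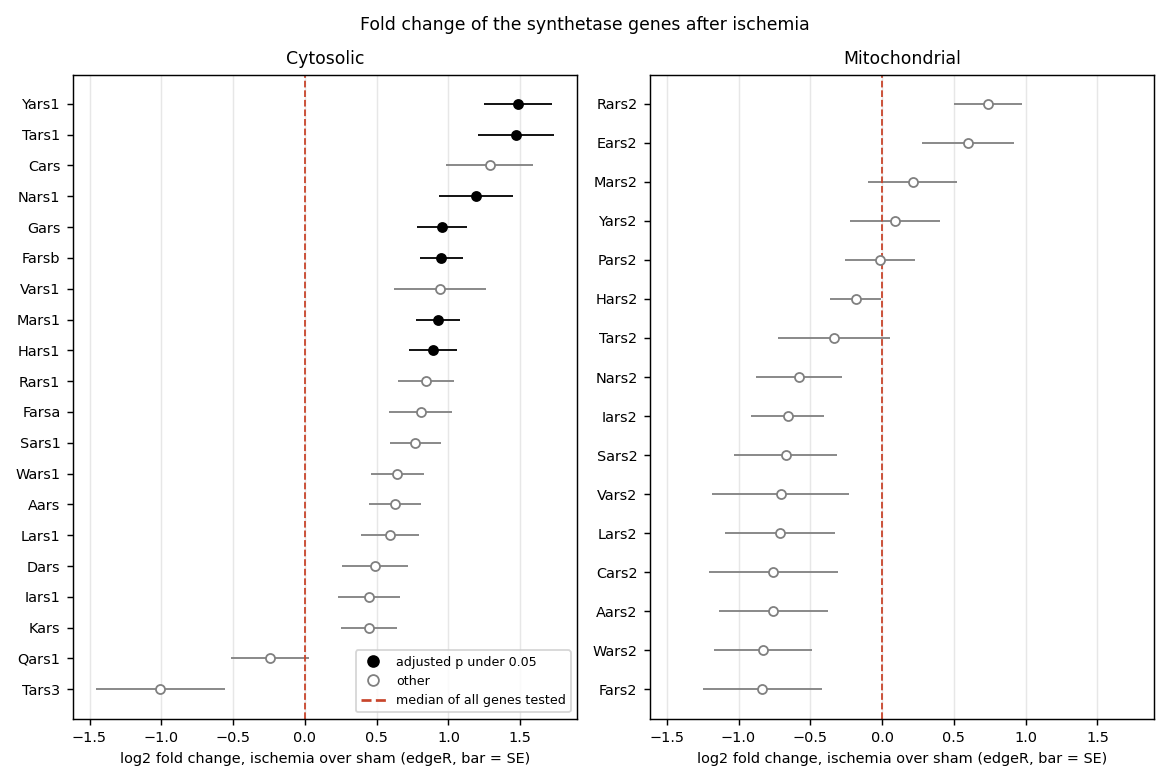
Log2 fold change of the synthetase genes, ischemia over sham, from edgeR on 3 against 3 libraries, with bars of 1 SE, for the cytosolic genes (left) and the mitochondrial genes (right). Filled points have an adjusted p under 0.05, the dashed line is the median of all genes tested, and 18 of 20 cytosolic but 4 of the 16 plotted mitochondrial points lie above 0.

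Yars1, the tyrosyl-tRNA synthetase gene (chromosome 5, 147375350 to 147403571, plus strand, in the coordinates of the deposited table), had 16.1, 14.4 and 17.3 FPKM in the sham libraries, taken in the order of their replicate numbers, against 32.8, 62.5 and 47.7 in the ischemia libraries. Every ischemia value was above every sham value, and ischemia replicate 1 was the lowest of its group. The log2 fold change was 1.48 ± 0.24 (SE, adjusted p = 0.0334), the highest of the 37 genes. Tars1, which charges threonine (chromosome 2, 61394770 to 61414102, minus strand), had 11.1, 8.02 and 10.1 FPKM in sham against 19.5, 41.3 and 25.7 in ischemia. Its log2 fold change was 1.47 ± 0.27 (SE, adjusted p = 0.0377), and in both groups replicate 2 lay at the edge, lowest in sham and highest in ischemia. Nars1, the asparaginyl enzyme (chromosome 18, 59986360 to 60002569, minus strand), showed the same extremes, with 21.9, 15.3 and 22.3 FPKM in sham against 32.9, 66.6 and 44.7 in ischemia. Its log2 fold change was 1.19 ± 0.25 (SE, adjusted p = 0.0478).

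Gars, the glycyl enzyme of both compartments (chromosome 4, 85235172 to 85276044, plus strand), had 24.7, 23.9 and 25.7 FPKM in sham against 44.0, 57.6 and 52.0 in ischemia, a log2 fold change of 0.95 ± 0.17 (SE, adjusted p = 0.0379). The sham values lay close to each other and well below the ischemia values. Farsb, the beta subunit of the phenylalanyl enzyme (chromosome 9, 84324442 to 84383687, minus strand), had 12.8, 10.8 and 13.4 FPKM in sham against 22.7, 27.8 and 25.2 in ischemia. Its log2 fold change was 0.95 ± 0.15 (SE, adjusted p = 0.0311), the lowest adjusted p of the family. Farsa, which encodes the alpha subunit of the same enzyme, had 14.3, 18.7 and 17.7 FPKM in sham against 30.8, 31.3 and 33.2 in ischemia, with a log2 fold change of 0.81 ± 0.22 (SE) that missed the threshold (adjusted p = 0.0721). Both subunit genes therefore showed groups that did not overlap, and the 3 ischemia libraries were close to each other for Farsa.

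Mars1, the methionyl enzyme (chromosome 7, 70585013 to 70602310, minus strand), had 19.6, 14.5 and 17.6 FPKM in sham against 31.6, 40.4 and 32.4 in ischemia, and Hars1, the histidyl enzyme (chromosome 18, 29611547 to 29629087, minus strand), had 29.5, 20.7 and 27.1 in sham against 43.0, 54.7 and 53.2 in ischemia. The log2 change was 0.93 ± 0.15 for Mars1 (SE, adjusted p = 0.0345) and 0.89 ± 0.17 for Hars1 (SE, adjusted p = 0.0397), and neither gene's groups overlapped. Mars1 overlaps the gene Ddit3 on the opposite strand by 72 bases. Ddit3, a stress transcription factor that ATF4 can induce, had 1282 to 7220 counts against 3271 to 8427 for Mars1, and how reads in the overlap were assigned is not given in the sources used here. The log2 fold change of Ddit3 was 0.53 ± 0.61 (SE, adjusted p = 0.566).

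The 7 calls were lost when any sham replicate or ischemia replicate 3 was left out. Without sham replicate 1, sham replicate 2, sham replicate 3 or ischemia replicate 3 the adjusted p of these 7 genes ran from 0.0820 to 0.170, and in each of those 4 fits 0 of all 13964 genes passed with edgeR, although 3020 to 3809 genes had an unadjusted p under 0.05. In the same fits 12 to 15 of the cytosolic synthetases had a higher level at an unadjusted p under 0.05, and Tars3 had a lower one without sham replicate 3. Without ischemia replicate 1 all 7 were called, among 11 cytosolic genes and 2605 of all genes, and without ischemia replicate 2 the 4 cytosolic calls were Farsb, Mars1, Tars1 and Yars1, among 571 of all genes. Nars1 and Hars1 also missed the threshold with total-count scaling (adjusted p = 0.0635 and 0.0531) and without the filter on low values (0.0574 and 0.0519), and Nars1 with limma (0.0536 and 0.0569 at pseudocounts 0.1 and 1). With the level of the atrial markers as a covariate, 0 of the 20 genes and 0 of all genes were called, 10 of the 20 had a higher level at an unadjusted p under 0.05, beside 2458 of all 13964 genes in either direction, and the median log2 fold change of the 20 was 0.65.

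Cars, which charges cysteine, had a log2 fold change of 1.29 ± 0.30 (SE), next in size after Tars1, but an adjusted p of 0.0541. Its FPKM was 9.11, 6.87 and 9.72 in sham against 13.4, 33.0 and 20.6 in ischemia, so the groups were apart while the ischemia values spread widely. Vars1, the valyl enzyme, had 13.2, 21.6 and 13.3 FPKM in sham against 32.0, 35.1 and 34.3 in ischemia, with a log2 fold change of 0.94 ± 0.32 (SE, adjusted p = 0.108). Here the spread lay in the sham group, where replicate 2 was the highest. Rars1 (arginine), Sars1 (serine), Wars1 (tryptophan), Aars (alanine) and Lars1 (leucine) had log2 fold changes from 0.59 to 0.84 with adjusted p from 0.0515 to 0.111, and in each of them the groups did not overlap. With DESeq2, which called 3813 of all 13964 genes in either direction against 937 with edgeR, 14 of the 20 cytosolic genes were called higher.

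**Figure D2:**
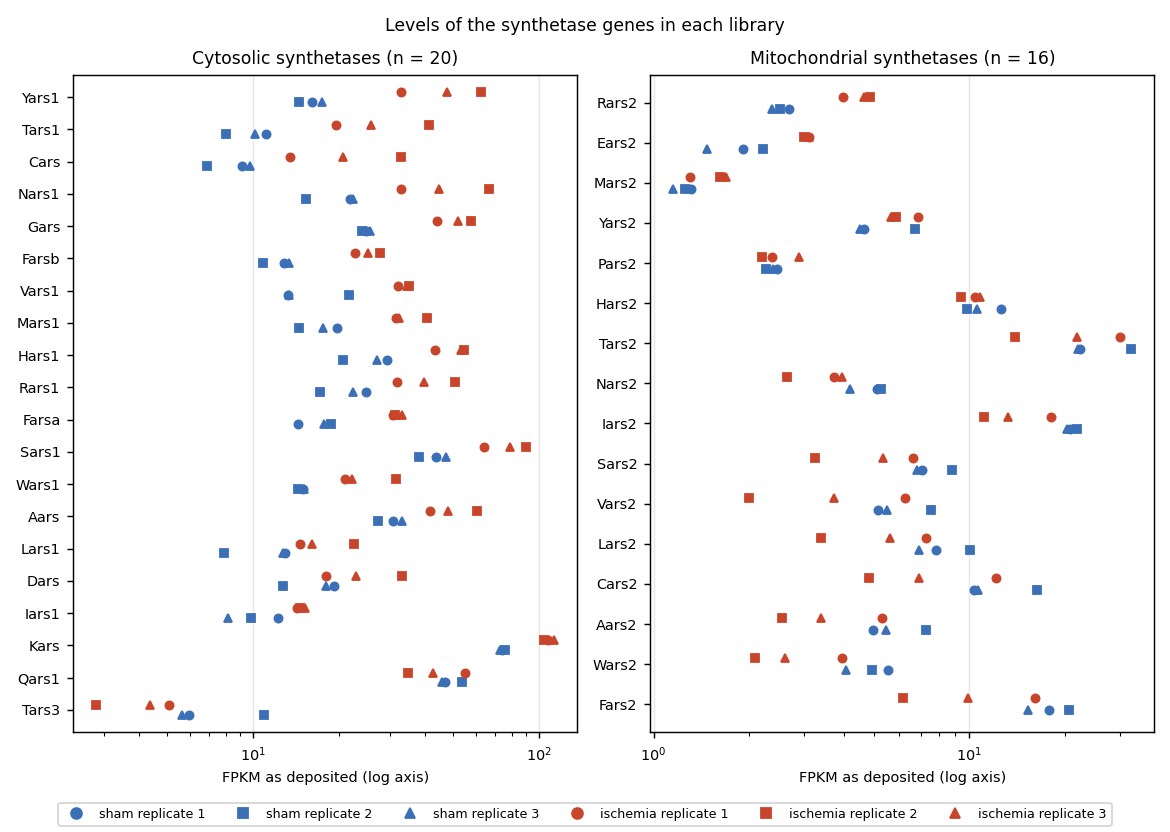
Deposited FPKM of the synthetase genes in each library on a log axis, cytosolic genes on the left and mitochondrial genes on the right, ordered by log2 fold change. Blue marks are sham and red marks ischemia, with circles, squares and triangles for replicates 1, 2 and 3; the red marks lie to the right of the blue ones in 17 of 20 cytosolic genes and in 2 of the 16 mitochondrial genes plotted.

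The cytosolic genes with the smallest changes included the most abundant. Kars, the lysyl enzyme of both compartments, had 73.9, 76.1 and 72.9 FPKM in sham against 107.7, 103.8 and 112.9 in ischemia, the highest level of the family in every library. Its groups were far apart, but its log2 fold change was 0.45 ± 0.20 (SE, adjusted p = 0.171). Iars1, the isoleucyl enzyme, had 12.2, 9.86 and 8.15 FPKM in sham against 14.2, 14.5 and 15.2 in ischemia, with a log2 fold change of 0.45 ± 0.21 (SE, adjusted p = 0.197). The table also lists LOC103690033, an Iars1-like row, with 0, 0 and 325 counts in sham against 583, 670 and 530 in ischemia, and with the copies summed the log2 fold change of Iars1 was 0.54 (adjusted p = 0.115). Reads of near-identical copies can be split or lost in counting, so the Iars1 value is uncertain. Dars, which charges aspartate, had overlapping groups, with 19.1, 12.7 and 17.9 FPKM in sham against 17.9, 33.2 and 22.9 in ischemia (log2 fold change 0.49 ± 0.23, SE, adjusted p = 0.192).

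Only Qars1 and Tars3 among the 20 cytosolic genes had a log2 fold change below 0, and neither passed the test. Qars1, the glutaminyl enzyme, had 46.8, 53.6 and 45.6 FPKM in sham against 54.8, 34.6 and 42.4 in ischemia, with overlapping groups and a log2 fold change of -0.24 ± 0.27 (SE, adjusted p = 0.553). Tars3, a threonyl enzyme known from muscle and formerly named Tarsl2, had 5.94, 10.9 and 5.64 FPKM in sham against 5.08, 2.82 and 4.36 in ischemia. Every ischemia value was below every sham value, and the log2 fold change was -1.01 ± 0.45 (SE, adjusted p = 0.175). Sham replicate 2 was the highest library for Tars3, and without it the log2 fold change was -0.47.

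The 7 members carried in the multisynthetase complex (Dars, Iars1, Kars, Lars1, Mars1, Qars1 and Rars1) had a median change of 0.49 (log2) with 1 call, Mars1. The 13 cytosolic genes outside the complex had a median of 0.94 with 6 calls. By structural class, the fold families into which all synthetases divide, the medians were alike, at 0.84 for the 9 cytosolic genes of class I and 0.81 for the 11 of class II. These medians are descriptions, and the difference between the complex and the other genes was not tested.

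Because ATF4 is a known regulator of cytosolic synthetase genes, RefSeq promoter windows of the assembly GRCr8, from 250 bases before to 50 bases after each gene's start, were searched for its response element core. A window was matched for 33 of the 37 genes. The letters TGATGNAA were sought on both strands, so that a match on the other strand reads TTNCATCA. They occurred in 7 of 17 cytosolic windows (41.2%), in 0 of 16 mitochondrial windows and in 3.98% of all 33469 windows. The 7 genes are Aars, Cars, Iars1, Mars1, Nars1, Tars1 and Yars1, and all hold the letters TGATGCAA. Stretches around the matches of 6 of these genes are shown because the 4 cytosolic genes with the largest fold changes are among them; each is written 5′ to 3′ on the strand of the gene, with the match in capitals and its coordinates in GRCr8.
Yars1, chr5:146820190-146820212, plus strand, 39 bases after the start: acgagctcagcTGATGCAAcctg
Tars1, chr2:62114811-62114840, minus strand, 27 bases before the start: ctggcgtcccgTTGCATCAgctggttagct
Cars, chr1:208225334-208225363, minus strand, 18 bases after the start: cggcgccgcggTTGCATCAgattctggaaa
Nars1, chr18:60275778-60275807, minus strand, 14 bases before the start: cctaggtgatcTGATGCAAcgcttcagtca
Mars1, chr7:65023752-65023781, minus strand, 17 bases before the start: gcccgttccggTTGCATCAgcgtgggctcc
Iars1, chr17:15193658-15193687, minus strand, 24 bases before the start: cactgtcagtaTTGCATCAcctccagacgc

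The 7 cytosolic genes with the motif had a median log2 fold change of 1.19, a range of 0.45 to 1.48 and 4 calls (Yars1, Tars1, Nars1 and Mars1). The 10 cytosolic genes whose window lacked it had a median of 0.71, a range of -1.01 to 0.95 and 2 calls (Farsb and Hars1). The 4 cytosolic genes with the largest fold changes all carried the letters, and so did Iars1, which was among the smallest. The difference between the genes with and without the motif was not tested. A second set of letters, CACGTG, is the E-box read by Myc and related factors. It was found for 5 of 17 cytosolic genes (29.4%), namely Aars, Farsb, Iars1, Tars1 and Vars1. Among mitochondrial genes it was found for 1 of 16 (6.25%), Ears2, and it was in 6.42% of all windows. The 5 cytosolic genes with CACGTG had log2 fold changes of 0.62, 0.95, 0.45, 1.47 and 0.94, in the order named. A match in a window is a description of letters, not evidence of binding in these hearts.

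The mitochondrial synthetases did not share the direction of the cytosolic set. Of the 17 genes, 13 had a log2 fold change below 0 and 4 above (Rars2, Ears2, Mars2 and Yars2), with a median of -0.66 and a highest value of 0.74. None was called in either direction by edgeR. At an unadjusted p under 0.05, 3 were lower, with Wars2 and Iars2 among them, beside 14.2% of all genes, and 1 was higher (Rars2), beside 18.2%, while DESeq2 called 1 lower and 1 higher (Rars2) and limma on log2(FPKM + 0.1) called 0. On the log2 CPM scale all ischemia values lay below all sham values for 2 of the 17 genes, with Iars2 among them, beside 19.1% of all genes, and above them for 2, Ears2 and Rars2, beside 22.0%, and the groups overlapped for the other 13. In deposited FPKM Nars2, Sars2 and Wars2 also had all ischemia values below sham, so that count depended on the scaling. The 19.1% is for log2 CPM and not for FPKM. With total-count scaling, which like FPKM carries no TMM factor, 14.9% of all genes lay below.

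The summed FPKM of the mitochondrial genes was 140, 170 and 131 in the sham libraries (147 ± 20.1, SD, n = 3) against 143, 82.9 and 109 in the ischemia libraries (111 ± 30.0, SD, n = 3). The groups overlapped, with sham replicate 2 highest and ischemia replicate 2 lowest of the 6 libraries. The cardiomyocyte marker sum had the same extremes, at 29066, 45439 and 27203 in sham against 26472, 13067 and 24839 in ischemia, and 8 of its 10 genes had a log2 fold change below 0. All 7 fibroblast markers were also below 0, and endothelial marker sums were 201 to 210 in sham against 183 to 211 in ischemia. The part of cell composition in the mitochondrial values was not tested. Leaving out ischemia replicate 2 moved the median log2 fold change of the 17 genes to -0.39, leaving out sham replicate 2 moved it to -0.37, and without ischemia replicate 1 it was -0.89 with 1 gene called lower.

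**Figure D3:**
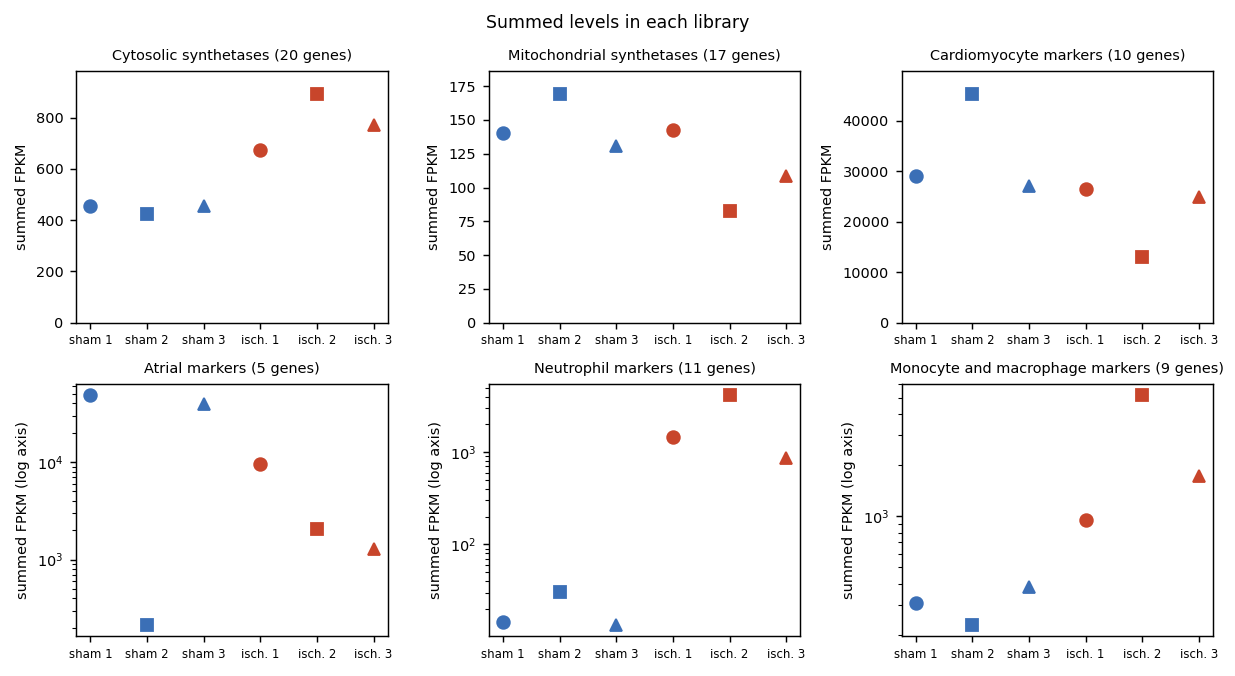
Summed FPKM in each library for the cytosolic and the mitochondrial synthetases and for 4 lists of cell type markers, with sham in blue, ischemia in red, and log axes for the atrial, neutrophil and monocyte panels. In deposited FPKM ischemia replicate 2 is highest for cytosolic synthetases (894) and neutrophil markers (4124) and lowest for mitochondrial synthetases (82.9) and cardiomyocyte markers (13067).

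Fars2, the phenylalanyl enzyme, which works in mitochondria as a single chain, had 17.8, 20.7 and 15.3 FPKM in sham against 16.2, 6.16 and 9.92 in ischemia (log2 fold change -0.83 ± 0.41, SE, adjusted p = 0.208). Ischemia replicate 1 lay inside the sham range, as it did for Aars2, the alanyl enzyme, with 4.94, 7.26 and 5.46 FPKM in sham against 5.30, 2.56 and 3.39 in ischemia (log2 fold change -0.76 ± 0.38, SE, adjusted p = 0.213). Wars2, the tryptophanyl enzyme, had 5.52, 4.92 and 4.08 FPKM in sham against 3.96, 2.10 and 2.61 in ischemia, with a log2 fold change of -0.83 ± 0.34 (SE, adjusted p = 0.151). Its groups were apart in FPKM by a small margin and overlapped after TMM scaling.

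Cars2, Lars2, Vars2, Sars2 and Nars2, for cysteine, leucine, valine, serine and asparagine, had log2 fold changes between -0.76 and -0.58 with adjusted p from 0.224 to 0.331. Without sham replicate 2 these log2 fold changes lay between -0.42 and -0.37. In each of these 5 genes ischemia replicate 2 had the lowest FPKM of the 6 libraries. Tars2 (threonine) had a log2 fold change of -0.33 ± 0.39 (SE) and Pars2 (proline) one of -0.016 ± 0.25 (SE), both with overlapping groups. The direction of Pars2 turned positive under total-count scaling, at 0.071, and that of Tars2 when sham replicate 2 was left out, at 0.015, so neither has a direction in these data.

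Of the 4 mitochondrial genes with a log2 fold change above 0, Rars2 and Ears2 had groups that were apart. Rars2, the arginyl enzyme (chromosome 5, 50075527 to 50127424, plus strand), had 2.67, 2.51 and 2.38 FPKM in sham against 3.98, 4.86 and 4.65 in ischemia. Every ischemia value was above every sham value, and the log2 fold change was 0.74 ± 0.24 (SE, adjusted p = 0.0980). Rars2 overlaps Slc35a1, a sugar nucleotide carrier gene on the opposite strand, by 7544 bases, and had 339 to 716 counts against 358 to 1387 for Slc35a1, so its value depends on how such reads were assigned. Ears2, the glutamyl enzyme that also starts mitochondrial glutamine charging, had 1.91, 2.23 and 1.48 FPKM in sham against 3.11, 3.004 and 3.12 in ischemia. The ischemia values were nearly equal, yet the log2 fold change of 0.60 ± 0.32 (SE) did not pass (adjusted p = 0.233). Mars2, the methionyl enzyme, had 1.32, 1.26 and 1.15 FPKM in sham against 1.31, 1.62 and 1.70 in ischemia (log2 fold change 0.21 ± 0.31, SE, adjusted p = 0.654). A Mars2-like copy, LOC100911305, had the same range of 148 to 214 counts as Mars2, so reads may have been shared between these rows. Yars2, the tyrosyl enzyme, had 4.63, 6.71 and 4.49 FPKM in sham against 6.86, 5.85 and 5.63 in ischemia, with overlapping groups and a log2 fold change of 0.09 ± 0.31 (SE, adjusted p = 0.862). With the atrial markers as a covariate the signs of Mars2 and Yars2 turned, to -0.011 and -0.11.

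To set the compartments side by side for the same amino acid, 17 pairs of a cytosolic and a mitochondrial gene over 15 amino acids were formed. In 16 pairs the cytosolic log2 fold change was above the mitochondrial one, and in 13 pairs the cytosolic gene was above 0 and its mitochondrial partner below 0. The ratio of the pair's FPKM within a library needs no scaling between libraries. This ratio was higher in all 3 ischemia libraries than in all 3 sham libraries in 15 pairs and lower in 1. The pairs share the same 6 libraries and are not independent of each other, so these counts are given without a test.

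**Figure D4:**
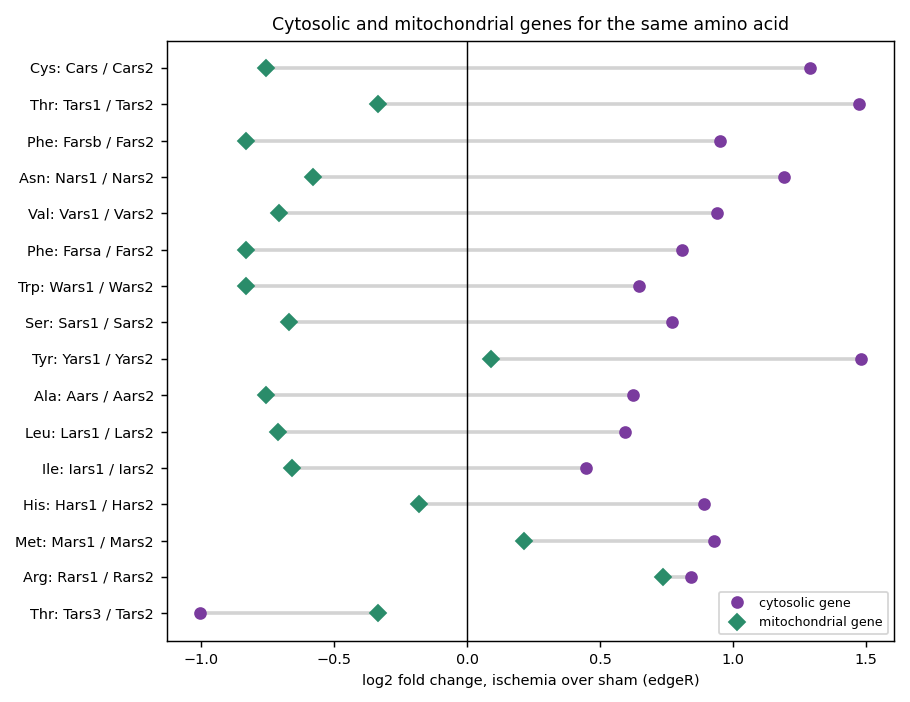
Log2 fold change, ischemia over sham, of the cytosolic gene (circle) and the mitochondrial gene (diamond) for 16 pairs, ordered by their difference. The circle lies to the right of the diamond in 15 of the plotted pairs, the exception being Tars3 with Tars2, and the points of the Arg pair nearly coincide.

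The cysteine pair differed most, by 2.05 on the log2 scale. Its ratio of Cars to Cars2 FPKM was 0.884, 0.422 and 0.911 in sham against 1.11, 6.86 and 2.97 in ischemia, so the mitochondrial gene had the higher level in every sham library and the cytosolic gene in every ischemia library. The ratio of Tars1 to Tars2 was 0.494, 0.246 and 0.459 in sham against 0.648, 2.96 and 1.18 in ischemia. In both pairs ischemia replicate 2 had the highest and ischemia replicate 1 the lowest ratio of the group.

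On the log2 CPM scale isoleucine was the amino acid for which the cytosolic and mitochondrial genes had opposite signs with both groups apart, while in deposited FPKM the asparagine, serine and tryptophan pairs also met this description. Iars2 (chromosome 13, 103231387 to 103264906, minus strand) had 20.7, 21.9 and 20.3 FPKM in sham against 18.1, 11.1 and 13.3 in ischemia, with a log2 fold change of -0.66 ± 0.26 (SE, adjusted p = 0.137). The ratio of Iars1 to Iars2 was 0.588, 0.450 and 0.401 in sham against 0.784, 1.31 and 1.15 in ischemia. Iars2 was thus the more abundant of the pair in all sham libraries, and the order was turned in ischemia replicates 2 and 3.

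Arginine was the exception in the other direction. Rars1 had 24.8, 17.1 and 22.3 FPKM in sham against 31.7, 50.5 and 39.5 in ischemia, with a log2 fold change of 0.84 ± 0.19 (SE, adjusted p = 0.0517), and Rars2 moved by nearly as much. The ratio of Rars1 to Rars2 was 9.28, 6.79 and 9.38 in sham against 7.98, 10.4 and 8.50 in ischemia, with overlapping groups. The ratio of Tars3 to Tars2 was the one that was lower, at 0.265, 0.336 and 0.256 in sham against 0.169, 0.202 and 0.199 in ischemia.

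Hars1 and Hars2 lie head to head on chromosome 18 and point away from each other. In the deposited table Hars2 runs from 29629184 to 29638721 on the plus strand, with 96 bases between the genes. Hars2 had 12.5, 9.83 and 10.6 FPKM in sham against 10.4, 9.43 and 10.8 in ischemia, with overlapping groups and a log2 fold change of -0.18 ± 0.18 (SE, adjusted p = 0.496). Hars1 rose in the same libraries, and the ratio of Hars1 to Hars2 was 2.35, 2.10 and 2.57 in sham against 4.14, 5.80 and 4.91 in ischemia. The 143 bases between the RefSeq starts are shown because they lie upstream of both genes, of which Hars1 was called and Hars2 was not, a difference that was not itself tested. They contain neither TGATGNAA nor CACGTG.
Hars1 to Hars2, chr18:28672713-28672855, GRCr8, plus strand: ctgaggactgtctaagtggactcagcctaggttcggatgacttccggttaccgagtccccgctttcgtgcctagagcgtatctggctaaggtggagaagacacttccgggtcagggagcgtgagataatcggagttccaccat

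Genes that work next to the synthetases were read from fixed lists. The table itself assigned 46 rows to aminoacyl-tRNA biosynthesis, which included all 37 members. Of Eprs and the 3 scaffolds of the multisynthetase complex, 4 of 4 had a log2 fold change above 0 and 2 rose, beside 5.18% of all genes tested. Eef1e1, a scaffold also called p18, had 9.33, 6.23 and 9.59 FPKM in sham against 17.8, 27.7 and 21.1 in ischemia (log2 fold change 1.33 ± 0.20, SE, adjusted p = 0.0303), and Aimp1 had 33.5, 22.7 and 33.6 in sham against 49.4, 56.6 and 53.2 in ischemia (0.75 ± 0.15, SE, adjusted p = 0.0446). Both had groups that did not overlap. Aimp2 had a log2 fold change of 0.80 (adjusted p = 0.0981) and Eprs one of 0.88 (adjusted p = 0.119).

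Of 8 elongation factors, which serve the ribosome as it lengthens the chain, 5 had a log2 fold change above 0 and 1 rose, beside the same 5.18% of all genes. That was Eef1b2, an exchange factor of the cytosolic carrier, with 104, 85.1 and 122 FPKM in sham against 247, 294 and 248 in ischemia (log2 fold change 1.26 ± 0.17, SE, adjusted p = 0.0272). The cytosolic carrier Eef1a1 had a log2 fold change of 0.78 (adjusted p = 0.153) and its striated muscle form Eef1a2 one of -0.95 (adjusted p = 0.263). The mitochondrial factors Tufm, Gfm1 and Tsfm had values of -0.37, -0.33 and 0.11, none past the test. All 5 rows of the helpers of mitochondrial charging were below 0 and 0 were called. Among them Qrsl1, a subunit of the enzyme that converts glutamate on tRNA to glutamine, had 10.6, 13.2 and 10.4 FPKM in sham against 6.34, 3.06 and 5.03 in ischemia, with groups apart and a log2 fold change of -1.34 ± 0.36 (SE, adjusted p = 0.0706).

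Of 7 genes for tRNA export, editing and selenocysteine, 2 had a log2 fold change above 0 and 0 were called. Xpot, the export receptor for tRNA, had 0.66 (adjusted p = 0.209) and Dtd2, which removes wrongly attached amino acids, had -1.03 (adjusted p = 0.0912). Of 8 genes of the amino acid response, 7 had a log2 fold change above 0, 3 had a higher level at an unadjusted p under 0.05, beside 18.2% of all genes, and 0 were called. Atf4 had 84.6, 73.0 and 90.6 FPKM in sham against 124, 398 and 259 in ischemia, with groups apart and a log2 fold change of 1.55 ± 0.40 (SE, adjusted p = 0.0632). Asns, the asparagine synthetase and a known ATF4 target, had 2.37, 2.55 and 7.60 FPKM in sham against 9.38, 18.6 and 6.15 in ischemia, with overlapping groups (log2 fold change 1.36 ± 0.55, SE, adjusted p = 0.147). Trib3 had 0.614, 0.751 and 0.878 FPKM in sham against 2.51, 20.8 and 1.28 in ischemia (log2 fold change 3.27 ± 1.04, SE, adjusted p = 0.0952). Ischemia replicate 2 was the highest of the 6 libraries for all 3 of these genes.

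**Figure D5:**
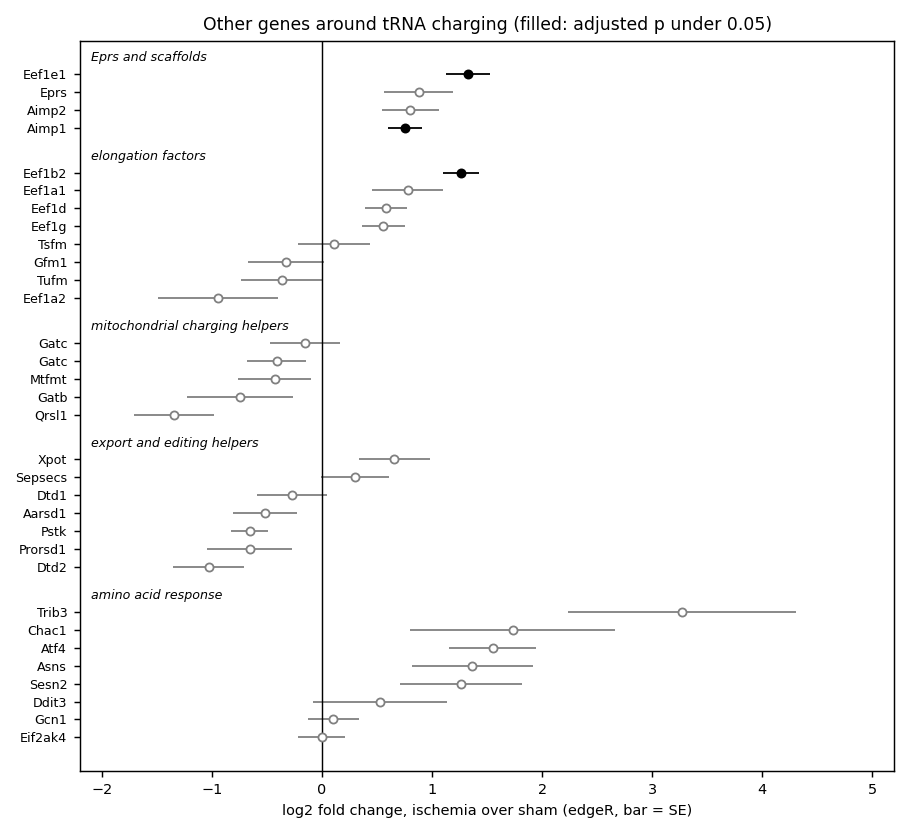
Log2 fold change, ischemia over sham, with bars of 1 SE (edgeR, 3 against 3 libraries) for genes around tRNA charging, in 5 fixed lists. Filled points have an adjusted p under 0.05 (Eef1e1, Aimp1 and Eef1b2); all 5 rows of the mitochondrial charging helpers, including both rows named Gatc, lie below 0.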

How the data were processed

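The authors deposited a single table of Ensembl rat genes with raw counts per gene, not normalized, and FPKM, which the authors had scaled by gene length and library size. The submitters' processing notes name STAR and HTSeq without versions, and the genome build and counting strand are not given in the sources used here. The kit was TruSeq Stranded Total RNA. The filter kept genes whose mean FPKM was 0.5 or more (13964, all members included), which were tested with the quasi-likelihood F test of edgeR 4.0.16 in R 4.3.3, TMM scaling and no covariate. Two-sided p-values were adjusted with Benjamini-Hochberg over all genes tested, with a threshold of 0.05, and the SE was derived from the F statistic. The procedure was tested on simulated data.

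The members and lists were chosen with earlier results of these data known. Values per library were given for members past the threshold, the 6 highest and 4 lowest cytosolic and the 4 highest and 4 lowest mitochondrial fold changes, pairs with opposite signs and groups apart, and neighbours that share a start region; Vars1, Farsa, Dars, Rars1 and the pathway genes shown were added after their values were seen. A mitochondrial gene and 1 sequence stretch are counted above but not reported here. Alternatives were other scalings, filters, DESeq2 1.42.0, limma 3.58.1 on log2(FPKM + 0.1) and log2(FPKM + 1), a replicate block and each replicate left out. The atrial covariate and the summing of gene copies were added after the data were seen. The labels do not say that the 3 samples of a group came from separate animals, so p-values measure only the spread between these samples. Motifs were counted in RefSeq windows matched by symbol, and positions in GRCr8 were not converted to the table's coordinates.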

Additional observations from a re-analysis of the deposited data

How the results depend on the processing

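All 20 cytosolic genes and 13 of 17 mitochondrial genes kept their sign under every alternative run. The count of cytosolic genes called higher was 7 with edgeR, where 937 of all 13964 genes were called in either direction. It was 6 with total-count scaling (605 of 13964) and 5 without a filter (586 of 20541). It was 0 with a replicate block, 0 with the atrial covariate and 14 with DESeq2 (3813 of 13964). With a replicate left out it was 0 to 11 (0 to 2605 of all genes). With the block and with the atrial covariate 0 of all genes passed, while 3349 and 2458 had an unadjusted p under 0.05. The labels do not say whether same-numbered samples were paired. Same-numbered samples had correlations of -0.056, -0.094 and -0.20 between their deviations from the group means. Such values cannot show whether the samples were handled together. The median cytosolic log2 fold change was 0.65 with the atrial covariate and 0.75 to 0.92 when a replicate was left out. One replicate less gave 1 to 2 cytosolic genes with all ischemia values below sham, the 2 without ischemia replicate 1.

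At a mean FPKM of at least 5, 1 of the 10 mitochondrial genes tested was called lower, among 1016 of 8156 genes called in either direction. DESeq2 called 1 mitochondrial gene lower and 1 higher, and 0 to 1 were called lower when a replicate was left out. Mitochondrial genes with all ischemia values below sham were 4 with median-ratio scaling, 4 with upper-quartile scaling, 5 with total-count scaling and 2 to 9 with a replicate left out, and those with all above were 1, 1, 3 and 2 to 4. Over all genes the shares below were 20.4%, 19.8%, 14.9% and 20.9% to 29.4% in the same settings, and the shares above 21.0%, 21.2%, 23.7% and 23.6% to 30.2%, in both cases highest without ischemia replicate 1, the fit with 9 below. Signs turned for Pars2 (0.071 with total-count scaling, 0.0018 without a filter, 0.056 and 0.043 with limma at pseudocounts 0.1 and 1, and -0.19 to 0.10 with a replicate left out), Yars2 (-0.11 with the atrial covariate, -0.072 to 0.44 with a replicate left out), Mars2 (-0.011 with the atrial covariate) and Tars2 (-0.64 to 0.015 with a replicate left out). The cause was not tested. With 148 to 214 counts per library, Mars2 was the least deeply covered member.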
